A study of Mus musculus with 8 samples.

Results

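The granins and the enzymes that process prohormones were followed in cells sorted by a Cre reporter from the mouse central amygdala. The set holds 10 genes of 21375 measured: Chga, Chgb, Scg2, Scg3, Scg5, Vgf, Pcsk1, Pcsk2, Pcsk1n and Cpe. They are a list of dense-core vesicle genes selected on their measured TPM and estimated counts in these libraries, with the comparisons by population and by age already known. Their levels in those comparisons are therefore descriptions, and no p-value of a single member is printed for them. Members past a threshold there are named as description, and nothing is read from the naming. TPM and estimated counts were summed over the RefSeq targets of each symbol, which were 2 targets for Scg3 and 1 for each other gene. Of the 10, 9 passed the filter on low counts and Pcsk1 did not.

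RNA came from about 1000 td-Tomato-positive cells per library, sorted from papain-dissociated punches of both central amygdalae, with 1 male mouse per library. PKCd libraries (n = 4) came from PKC delta-type::Cre crossed with Rosa::loxP-STOP-loxP-td-Tomato mice, replicates 3 and 4 at 18 weeks and replicates 1 and 2 at 9 weeks. SST libraries (n = 4) came from SST::Cre mice crossed with the same reporter, replicates 3 and 4 at 20 weeks and replicates 1 and 2 at 8 weeks. The labels name no treatment, and all mice carried a Cre and the reporter, which stays on in any cell that has once had Cre, so the sort marks the history of the promoter and not its activity at the time.

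Libraries of the 18 to 20 week mice held 964361 to 2522749 estimated counts and those of the 8 to 9 week mice 10316149 to 18242496, so age class cannot be told apart from depth. Prkcd stood at 106.5 to 225.7 TPM in PKCd libraries and 0 to 30.2 TPM in SST libraries. Sst stood at 0.209, 222.7, 4.33 and 13.7 TPM in PKCd replicates 1 to 4, against 116.3 to 296.2 TPM in SST libraries, so PKCd replicate 2 goes against its label for that gene. Summed TPM of 12 microglial markers was 30290 to 49640 in PKCd libraries and 471.2 to 5997 in SST libraries, and 9 general neuron markers summed to 140.7 to 583.3 TPM in PKCd libraries and 151.9 to 582.4 TPM in SST libraries. Both kinds of library thus held RNA of cells other than neurons, and in bulk RNA fewer cells of a type and less RNA per cell cannot be told apart.

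Granins are acidic proteins of the dense-core vesicle, the organelle that stores neuropeptides. They aggregate in the trans-Golgi network together with peptide precursors, and several are themselves cut into active peptides. Proprotein convertases PC1/3 (Pcsk1) and PC2 (Pcsk2) cut precursors at pairs of basic residues, carboxypeptidase E (Cpe) trims the exposed basic residues, and each convertase has a small partner: 7B2 (Scg5) is needed for PC2 to mature, and proSAAS (Pcsk1n) inhibits PC1/3. Neurons of the central amygdala are largely GABAergic and use many neuropeptides, among them somatostatin and enkephalin.

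Promoters are shown for the 3 classical granins, which share their highest libraries, and for the convertase Pcsk1 and its inhibitor Pcsk1n as a pair. The sequences run 5′ to 3′ over 300 bases, 250 before and 50 after the annotated transcript start, from RefSeq in GRCm38.p6. For Pcsk1, and for Scg3 among those not shown, the window lies inside the gene span given below. Their start is thus not the outermost one of the gene, and distances are counted from that inner start. Of the 10 members, 8 had an entry, and none was found for Vgf or Cpe in that table. Capitals mark matches to the full cAMP response element TGACGTCA, which reads the same on both strands, or to the shorter core TGACG on either strand (a full site also contains the shorter one on each strand).
Chga, chr12:102554691-102554990, plus strand: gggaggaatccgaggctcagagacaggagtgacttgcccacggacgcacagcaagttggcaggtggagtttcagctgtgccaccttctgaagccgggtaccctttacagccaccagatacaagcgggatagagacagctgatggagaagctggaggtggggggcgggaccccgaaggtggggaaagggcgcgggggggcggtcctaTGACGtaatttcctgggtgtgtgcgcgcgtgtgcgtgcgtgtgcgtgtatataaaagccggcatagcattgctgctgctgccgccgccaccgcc
Chgb, chr2:132781392-132781691, plus strand: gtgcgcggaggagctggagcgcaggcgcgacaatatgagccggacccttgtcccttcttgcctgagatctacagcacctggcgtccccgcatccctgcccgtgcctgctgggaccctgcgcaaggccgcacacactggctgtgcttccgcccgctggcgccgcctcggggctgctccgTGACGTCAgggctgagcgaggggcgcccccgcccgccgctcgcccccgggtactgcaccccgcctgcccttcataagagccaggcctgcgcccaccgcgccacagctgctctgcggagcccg
Scg2, chr1:79439977-79440276, minus strand: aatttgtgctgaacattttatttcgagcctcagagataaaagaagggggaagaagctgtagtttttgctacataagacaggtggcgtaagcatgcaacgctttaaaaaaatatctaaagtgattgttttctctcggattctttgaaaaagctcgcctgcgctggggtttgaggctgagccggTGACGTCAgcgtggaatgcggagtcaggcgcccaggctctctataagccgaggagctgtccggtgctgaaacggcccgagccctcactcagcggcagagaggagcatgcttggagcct
Pcsk1, chr13:75089607-75089906, plus strand: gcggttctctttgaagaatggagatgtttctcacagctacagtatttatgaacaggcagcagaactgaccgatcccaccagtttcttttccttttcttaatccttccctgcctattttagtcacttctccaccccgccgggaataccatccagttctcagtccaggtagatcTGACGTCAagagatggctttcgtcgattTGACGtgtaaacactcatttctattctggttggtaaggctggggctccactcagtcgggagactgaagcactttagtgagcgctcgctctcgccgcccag
Pcsk1n, chrX:7919572-7919871, plus strand: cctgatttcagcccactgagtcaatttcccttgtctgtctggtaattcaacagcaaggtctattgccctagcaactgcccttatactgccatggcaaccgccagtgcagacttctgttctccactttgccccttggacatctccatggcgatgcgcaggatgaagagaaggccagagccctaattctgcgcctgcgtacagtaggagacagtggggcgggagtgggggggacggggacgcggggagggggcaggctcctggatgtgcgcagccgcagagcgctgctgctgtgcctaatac

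The full element was found in 3 of the 8 member promoters, against 1.79% of 32851 promoters of the same length. It began 72 bases before the start in Chgb, 68 in Scg2 and 78 in Pcsk1. The core TGACG was found in 7 of the 8, against 20.8% of all promoters. In Chga it began 44 bases before the start, and Pcsk1 had another copy beginning 50 bases before it. Pcsk1n was the member without either. These matches describe the letters in the window and were not tied to binding in these cells.

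Cpe (chromosome 8, 64592542 to 64693109, GRCm38), the carboxypeptidase, was the most abundant member in 7 of the 8 libraries. It had 5565, 648.8, 250.1 and 1553 TPM in PKCd replicates 1 to 4 and 3840, 6213, 2728 and 553.8 TPM in SST replicates 1 to 4. The populations overlapped, and the highest library had 24.8 times the lowest. By TPM Cpe ranked 7th among the 11518 genes above 0 in SST replicate 2 and 660th among 10634 in PKCd replicate 3. It made up 33.4% to 91.2% of the summed TPM of the 10 members. In PKCd replicate 2, where that share was lowest, Pcsk1n exceeded Cpe.

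**Figure D1:**
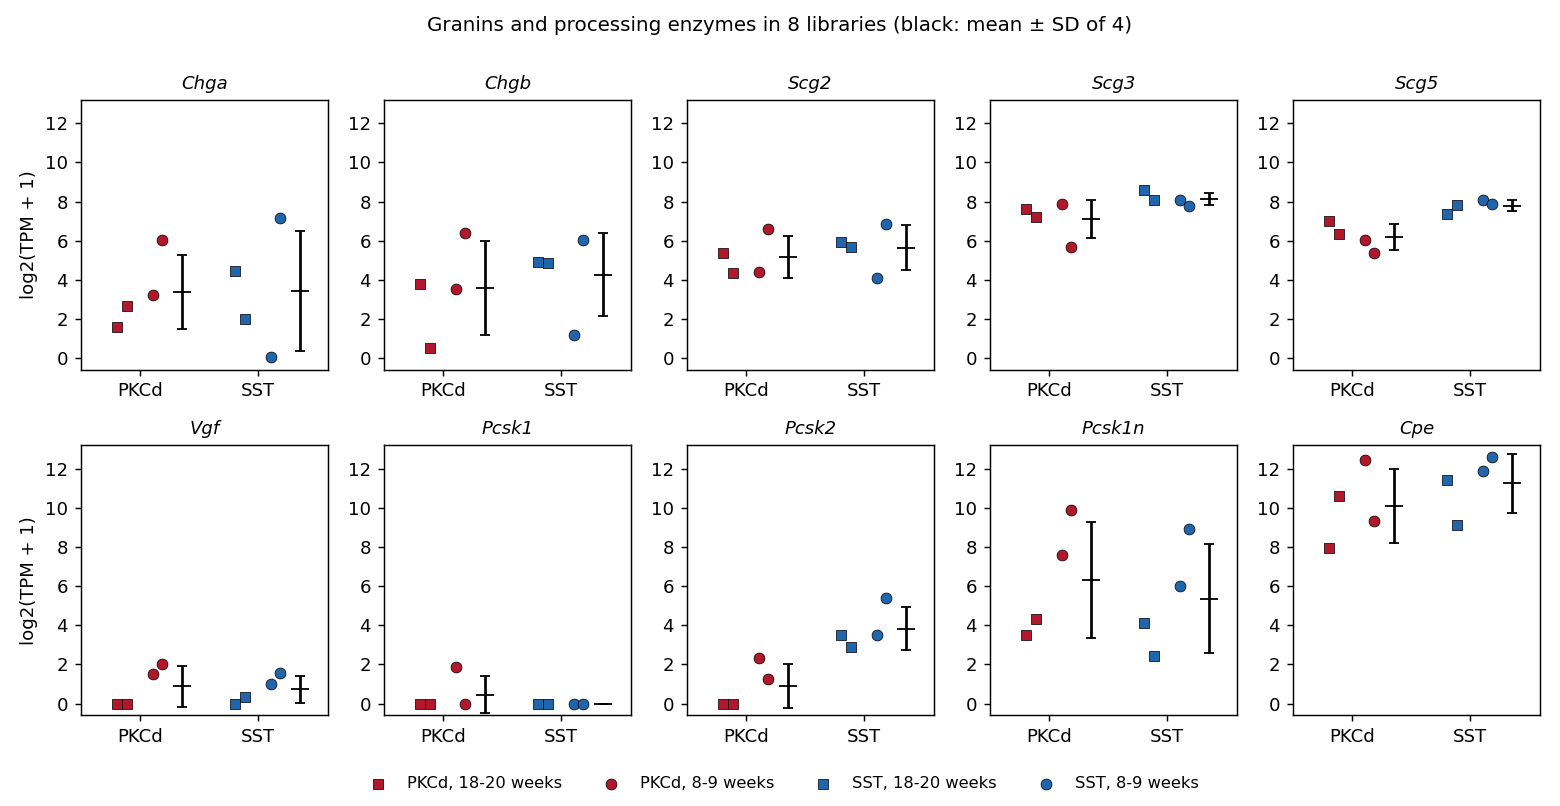
Level of each of the 10 genes, as log2(TPM + 1) on the vertical axis, in PKCd (red) and SST (blue) libraries, with squares for mice of 18 to 20 weeks, circles for mice of 8 to 9 weeks, and a black bar for mean ± SD of the 4 libraries. Scg5 and Pcsk2 separate the populations, Pcsk1n separates the ages, Vgf is at 0 in 3 of the older libraries, and Pcsk1 is above 0 in 1 library.

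Scg3 (chromosome 9, 75643366 to 75685959), a granin that binds chromogranin A and cholesterol-rich vesicle membrane, was second to Cpe in 6 of the 8 libraries. It had 233.4, 51.0, 195.2 and 148.7 TPM in PKCd replicates 1 to 4 and 270.5, 218, 377.3 and 270.7 TPM in SST replicates 1 to 4. PKCd replicate 1 lay above SST replicate 2, so the populations overlapped, with means of 157.1 ± 78.7 TPM in PKCd and 284.1 ± 66.9 TPM in SST (n = 4 each, ± SD). On a scale of log2(TPM + 1) its SD over the 8 libraries was 0.87, among the members the third smallest after Pcsk1 and Vgf, which were at 0 in 7 and 3 of the libraries.

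The 2 RefSeq targets of Scg3 differ by 15 bases in length, and the division of reads was made by the authors' tool, so the shares are uncertain. The shorter target, of 2192 bases, received 52.6%, 0%, 89.3% and 68.6% of the estimated Scg3 reads in PKCd replicates 1 to 4 and 54.3%, 56.4%, 47.5% and 61.3% in SST replicates 1 to 4. PKCd replicate 2, with 0 of 761 reads on that target, allows up to 0.394% by a floor of 3 reads. PKCd replicate 3 had 201 of 225 reads on it (95% Wilson interval 84.6 to 92.7%). Both the interval and the floor reflect counting error alone, because the reads were amplified and copies of 1 molecule count repeatedly. The SST libraries and PKCd replicates 1 and 4 thus gave mixed targets, while PKCd replicates 2 and 3 stood at opposite ends.

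Chga, Chgb and Scg2, the chromogranins A and B and secretogranin II, varied more between libraries of 1 population than between populations. Chga (chromosome 12, 102554941 to 102565027), the founding granin, had 8.24, 65.4, 2.06 and 5.22 TPM in PKCd replicates 1 to 4 and 0.0529, 142.8, 20.7 and 2.98 TPM in SST replicates 1 to 4. The low end rested on few reads: 1 read in SST replicate 1, a deep library, and 2 reads in PKCd replicate 3, a shallow one. Both ends of the Chga range therefore lay within the 8 week SST mice.

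Chgb (chromosome 2, 132781642 to 132795079), which like Chga aggregates with peptide precursors, had 10.6, 83.8, 13.0 and 0.433 TPM in PKCd replicates 1 to 4 and 1.30, 65.6, 28.8 and 28.2 TPM in SST replicates 1 to 4. Scg2 (chromosome 1, 79434366 to 79440026), the precursor of secretoneurin, had 20.1, 97.2, 40.9 and 19.2 TPM in PKCd replicates 1 to 4 and 16.2, 115.3, 61.0 and 49.4 TPM in SST replicates 1 to 4. The highest Scg2 library had 7.11 times the lowest, while the lowest values of Chgb, in PKCd replicate 4, and of Chga, in SST replicate 1, rested on 1 read each, so no such ratio is given for them. The populations overlapped for all 3.

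Vgf (chromosome 5, 137025301 to 137033351), which encodes a neurotrophin-induced granin-like precursor, was near the limit of these libraries. It had 1.84, 3.03, 0 and 0 TPM in PKCd replicates 1 to 4 and 1.02, 1.94, 0 and 0.266 TPM in SST replicates 1 to 4. These values stand on 27 to 53 reads in the 8 to 9 week libraries and on 1 read in all 4 libraries of 18 to 20 weeks.

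5 of the 10 members, Chga, Chgb, Scg2, Vgf and Pcsk1n, had their highest and second highest TPM in the same libraries, PKCd replicate 2 and SST replicate 2. These were also the libraries with the highest sum of the GABA neuron markers Gad1, Gad2 and Slc32a1, at 198.7 TPM in PKCd replicate 2 and 109.6 TPM in SST replicate 2, against 6.69 to 48.5 TPM in the other 6. Slc32a1, the vesicular GABA transporter, was at 0 in PKCd replicates 3 and 4 and SST replicates 2 and 4. Scg3, Scg5 and Cpe did not share that order: PKCd replicate 2 was the lowest of the 8 libraries for Scg3 and Scg5, at 51.0 and 40.8 TPM. PKCd replicate 2 also had the lowest sum of 8 astrocyte markers, 348.2 TPM against 2755 to 6944 TPM in the other 7 libraries. The sum of the 9 general neuron markers was highest in PKCd replicate 1, at 583.3 TPM. It was 582.4 TPM in SST replicate 2 and 503.2 TPM in PKCd replicate 2. Oligodendrocyte and oligodendrocyte precursor marker sums were highest in SST replicate 2, at 59650 and 1168 TPM. In PKCd replicate 2 they were 11710 and 7.545 TPM. The part of neuron and glial content in these levels was not tested.

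**Figure D2:**
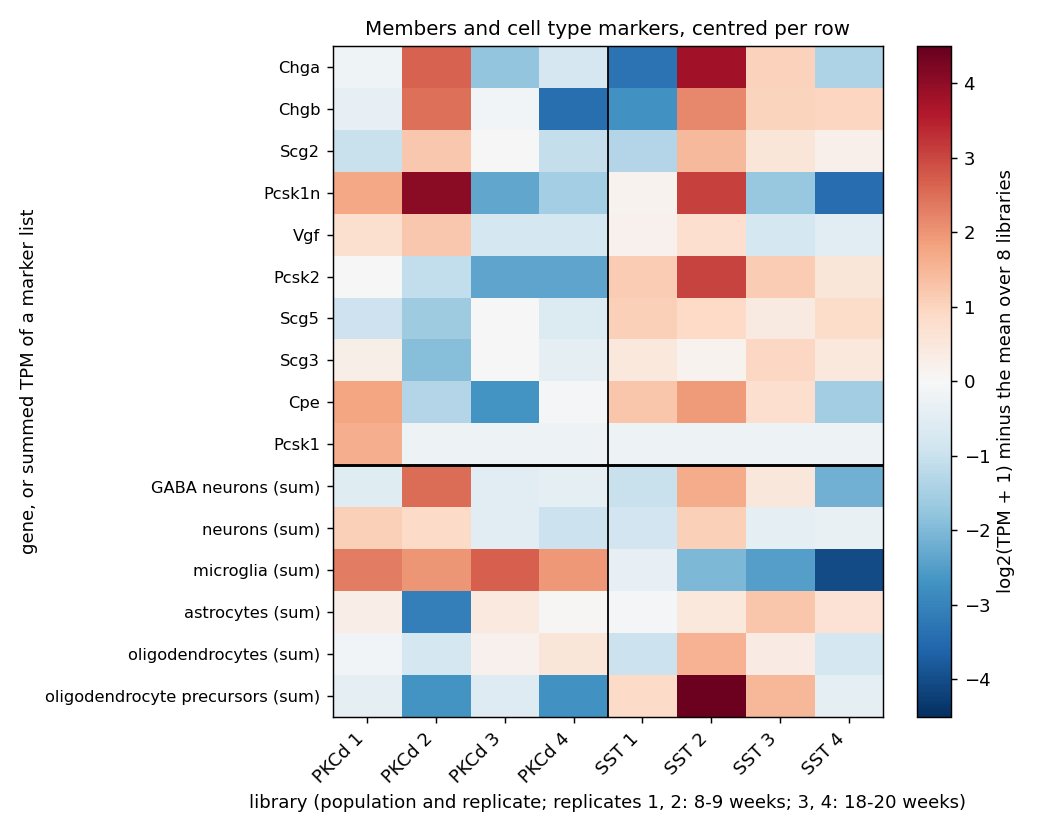
Each row is a gene or the summed TPM of a cell type marker list, each column a library, and colour gives log2(TPM + 1) minus the mean of the row over the 8 libraries. Chga, Chgb, Scg2, Pcsk1n and Vgf are highest in PKCd replicate 2 and SST replicate 2, as are the GABA neuron markers, while the microglial sum is high in every PKCd library.

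The first comparison was between the populations. Scg5 and Pcsk2, a chaperone and the convertase it serves, were lower in each PKCd library than in any SST library, and the other 8 members overlapped. Scg5 (chromosome 2, 113776313 to 113829091) had 64.9, 40.8, 127.9 and 81.0 TPM in PKCd replicates 1 to 4 and 264.6, 235.4, 165.6 and 222.6 TPM in SST replicates 1 to 4. The means were 78.7 ± 36.7 TPM in PKCd and 222 ± 41.5 TPM in SST (n = 4 each, ± SD), and the edgeR log2 fold change was -1.59 ± 0.60 (SE). Reads of Scg5 were 76 or more in every library, so its level did not rest on the floor of any of them.

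Pcsk2 (chromosome 2, 143546133 to 143816284), PC2, had 4.04, 1.36, 0 and 0 TPM in PKCd replicates 1 to 4 and 10.3, 41.4, 10.2 and 6.48 TPM in SST replicates 1 to 4. This was 266 reads over the PKCd and 2344 reads over the SST libraries. The separation within each age follows from that over all libraries and adds no support to it. At 18 to 20 weeks both PKCd libraries had 0 reads. Their floors of 3 reads were 1.142 TPM in PKCd replicate 3 and 0.7238 TPM in PKCd replicate 4, with a mean of 0.933 TPM. The SST mean of 8.36 TPM was 8.96 times that mean floor. This is not a lower bound, because the floors differ between libraries and reflect counting error alone. At 8 to 9 weeks the means were 2.70 TPM in PKCd and 25.9 TPM in SST libraries. The edgeR log2 fold change over all libraries was -4.71 ± 1.54 (SE), with 2 PKCd libraries at 0. It was -4.52 in DESeq2 and -2.93 in limma on log2(TPM + 1).

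**Figure D3:**
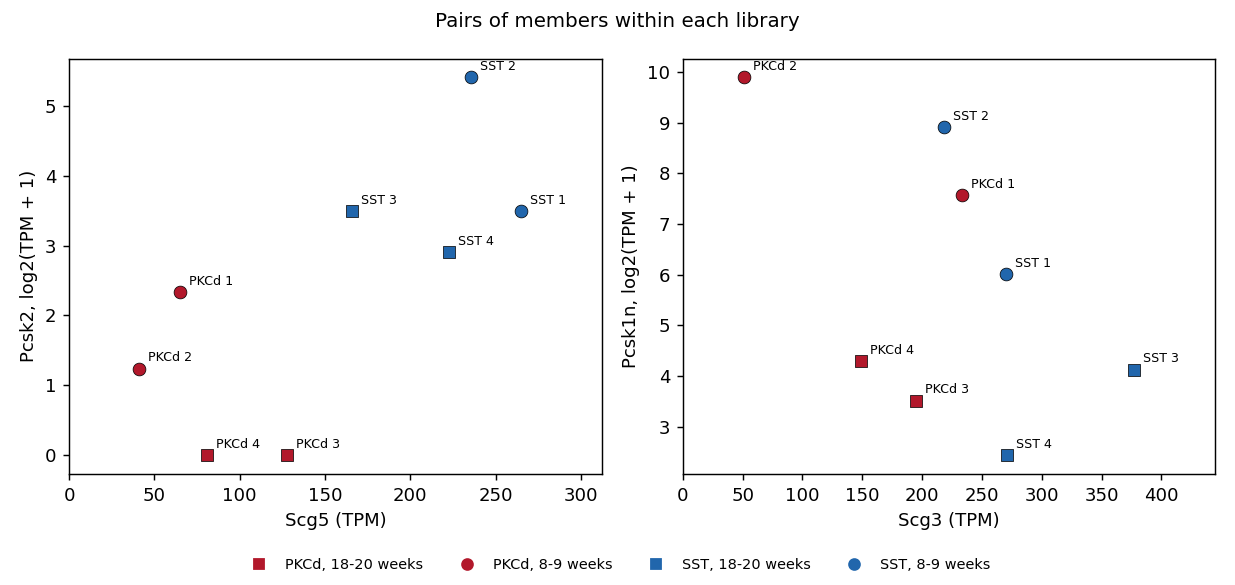
Each point is a library, with PKCd in red and SST in blue, squares for 18 to 20 weeks and circles for 8 to 9 weeks; the left panel sets Pcsk2, as log2(TPM + 1), against Scg5 in TPM, and the right panel sets Pcsk1n, as log2(TPM + 1), against Scg3 in TPM. On the left the PKCd libraries lie below 128 TPM of Scg5 and the SST libraries above 165 TPM, and on the right the 4 squares lie below the 4 circles.

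Per 100 TPM of the 9 general neuron markers, Pcsk2 was 0 to 0.693 TPM in PKCd libraries and 2.98 to 7.11 TPM in SST libraries, which did not overlap. That scale reuses the same Pcsk2 values and adds no support to their separation. On the same scale Scg5 was 8.11 to 66.6 TPM in PKCd and 40.4 to 174.2 TPM in SST libraries, which overlapped. Within a library Pcsk2 was 0 to 0.0622 of Scg5 in PKCd and 0.0291 to 0.176 of Scg5 in SST libraries, again with overlap, so the populations were not separated by the ratio of convertase to chaperone. Marker lists of other cell types differed with population as well. The sum of 6 oligodendrocyte precursor markers was 7.28 to 39.9 TPM in PKCd and 40.5 to 1168 TPM in SST libraries, with Vcan at 0 in PKCd replicates 2, 3 and 4. The sum of 6 mural cell markers averaged 1934 TPM in PKCd and 7291 TPM in SST libraries, with overlap. Their log2 fold changes had a median of -2.46, 0 of 6 passed in edgeR, 4 had an unadjusted p under 0.05 and DESeq2 called 3 lower. The microglial sum went the opposite way, with all 12 markers above 0 in every library. The part of these cell types in the Scg5 and Pcsk2 values was not tested.

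In the edgeR quasi-likelihood test with Benjamini-Hochberg adjustment over 11370 genes, 0 of the 9 tested members passed an adjusted p of 0.05. Over all genes that test called 0.281% higher in PKCd libraries and 0.0% lower. At an unadjusted p under 0.05 there were 2 members, Pcsk2 and Scg5, where all genes gave 6.68%. DESeq2 called 1 member, Pcsk2, lower, where it called 0.809% of all genes lower and 3.21% higher. Its unadjusted p was under 0.05 for the same 2 members and for 14.5% of all genes, and limma on log2(TPM + 1) and on log2(TPM + 0.1) called 0. The 2 members without overlap, both lower, stand beside 3.04% of all tested genes that were lower without overlap and 3.87% that were higher. The median log2 fold change of the 9 was -0.74, against -0.08 for all genes tested. Since the members were listed with this comparison known, nothing is read from these counts.

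The other 7 tested members overlapped between the populations. Cpe averaged 2004 ± 2436 TPM in PKCd and 3334 ± 2355 TPM in SST (n = 4 each, ± SD; log2 fold change -0.74 ± 0.74 SE). With 1 library left out that value was -1.50, without PKCd replicate 1, to -0.21, without SST replicate 3. Scg3 had a log2 fold change of -0.87 ± 0.51, Chga of -1.05 ± 1.55, Chgb of -0.56 ± 1.43 and Scg2 of -0.35 ± 0.77 (SE). Pcsk1n was the member with a positive value, 1.00 ± 0.70 (SE), from 293 ± 447.6 TPM in PKCd and 141.1 ± 227.5 TPM in SST (n = 4 each, ± SD). Without PKCd replicate 2 it was 0.23, and it was 0.23 to 1.48 over the 8 fits that each left out 1 library. Vgf differed by -0.01 on the log2 scale.

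**Figure D4:**
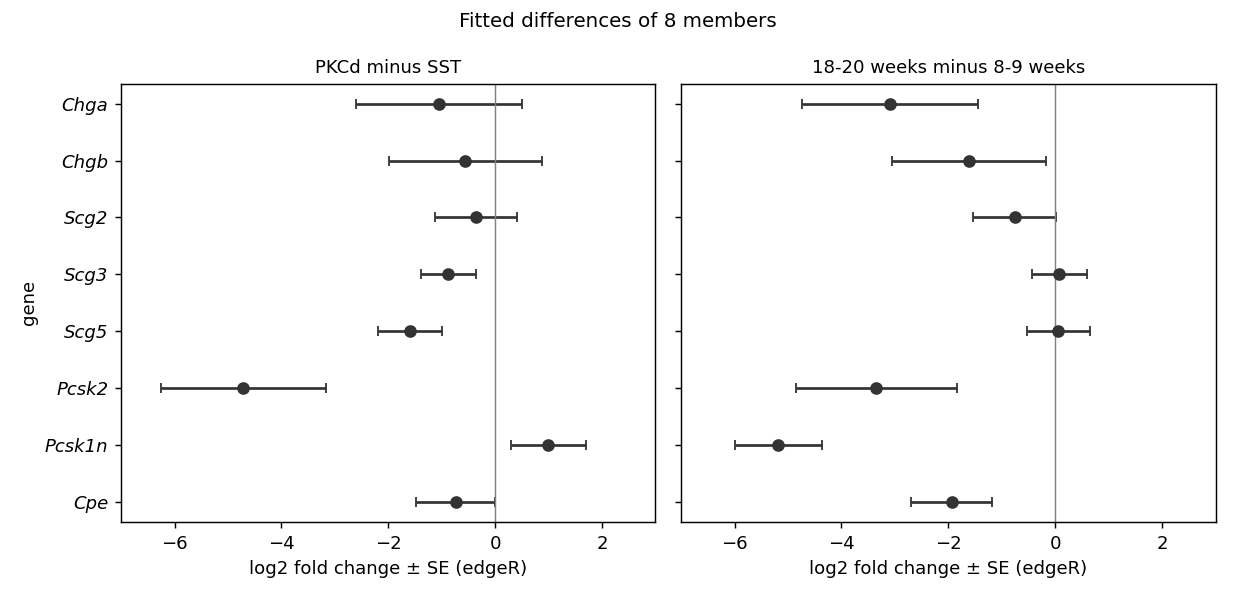
Points are log2 fold changes from edgeR and bars their SE for 8 members, PKCd minus SST on the left and 18 to 20 weeks minus 8 to 9 weeks on the right. Pcsk2 has the lowest value on the left, -4.71, and Pcsk1n the lowest on the right, -5.18; Vgf and Pcsk1 are left out because most of their older libraries hold no reads.

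The second comparison was between the age classes, which differ in depth as well. Pcsk1n was lower in all 4 libraries of 18 to 20 weeks than in all 4 of 8 to 9 weeks, and so was Vgf as listed, but with 1 read in the older libraries. Pcsk1n (chromosome X, 7919822 to 7924410), which encodes proSAAS, had 10.4, 18.7, 16.4 and 4.40 TPM in PKCd replicates 3 and 4 and SST replicates 3 and 4, against 190.2, 952.8, 63.3 and 480.2 TPM in PKCd replicates 1 and 2 and SST replicates 1 and 2. The means were 12.5 ± 6.42 TPM in the older and 421.6 ± 394.8 TPM in the younger mice (SD, n = 4 each), with an edgeR log2 fold change of -5.18 ± 0.81 (SE). The older libraries held 12 to 34 reads of the gene, above the floor of 3. Without PKCd replicate 2 and SST replicate 2, an alternative chosen after the data were seen, the log2 fold change was -3.52.

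Pcsk1n was also set against other genes of the same library, which reuses the same values and adds no support to the separation by age. Per 100 TPM of neuron markers it was 2.02 to 13.3 TPM in the older and 32.6 to 189.3 TPM in the younger mice. Per unit of Scg5 it was 0.0198 to 0.231 in the older and 0.239 to 23.3 in the younger mice, so the gap between the groups was narrow on that scale. Summed neuron markers themselves were 140.7 to 217.6 TPM in the older and 151.9 to 583.3 TPM in the younger mice, which overlapped. Their means were 189.4 TPM in the older and 455.2 TPM in the younger mice, and the median log2 fold change of the 9 markers was -2.56, with 0 passing in edgeR, 2 at an unadjusted p under 0.05 and 0 called by DESeq2. Summed TPM of 5 erythrocyte markers was 258.2 to 4520 in the older and 0.247 to 203.2 in the younger mice, without overlap. Of these markers Hbb-bs was at 0 in PKCd replicates 1 and 2 and in all 4 SST libraries, Hbb-bt in PKCd replicates 1 to 3 and SST replicate 1, Alas2 in PKCd replicates 1 to 3 and SST replicates 1 and 2, and Hba-a2 in SST replicates 1 and 2. Summed TPM of 8 endothelial markers averaged 6195 in the older and 1366 in the younger mice, with overlap. Their log2 fold changes had a median of 2.90, 0 of 8 passed in edgeR, 4 had an unadjusted p under 0.05 and DESeq2 called 4 higher. The part of neuronal, erythrocyte and endothelial RNA in the Pcsk1n and Vgf values was not tested.

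The Vgf difference lay at the limit of depth. Its floor of 3 reads was 0.799 to 2.21 TPM in the older libraries, while its level in the younger ones was 1.02 to 3.03 TPM. These ranges overlap, so the floors of single libraries did not separate the ages. Together the older libraries held 1 read of Vgf and the younger ones 174, and age class cannot be told apart from depth.

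Of the 9 tested members, 0 passed an adjusted p of 0.05 for age in edgeR, which called 0.0352% of all genes higher and 0.0264% lower in older mice. At an unadjusted p under 0.05 there were 4 members, Cpe, Pcsk1n, Pcsk2 and Vgf, where all genes gave 8.36%. DESeq2 called 1 member, Pcsk1n, lower, where it called 2.78% of all genes lower and 2.29% higher. Its unadjusted p was under 0.05 for 4 members, Chga, Cpe, Pcsk1n and Pcsk2, and for 17.0% of all genes, and limma called 0 at either pseudocount. The 2 members without overlap, both lower, stand beside 3.52% of all tested genes that were lower and 4.14% that were higher. The median log2 fold change of the 9 was -1.94, against -0.17 for all genes tested. As for population, these counts describe a list made with the comparison known.

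Scg3 and Scg5 stood at like levels in both age classes, with log2 fold changes of 0.08 ± 0.51 and 0.05 ± 0.59 (SE). Their means were 248 ± 99.8 TPM in the older against 193.2 ± 97.4 TPM in the younger mice for Scg3 (SD, n = 4 each). For Scg5 they were 149.3 ± 59.9 TPM in the older and 151.4 ± 114.8 TPM in the younger mice. Cpe averaged 1271 ± 1119 TPM in the older and 4067 ± 2489 TPM in the younger mice, with overlap (log2 fold change -1.94 ± 0.76 SE). With 1 library left out that value was -2.56, without PKCd replicate 4, to -1.16, without PKCd replicate 1. Chga, Chgb and Scg2 had log2 fold changes of -3.09, -1.61 and -0.76, but the sign of each rested on PKCd replicate 2 and SST replicate 2: without both, they were 0.68, 0.91 and 0.84. Pcsk2, at -3.34 ± 1.50 (SE), was -4.07 without both, -1.89 with no population term and -1.52 in limma on log2(TPM + 1).

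Pcsk1 (chromosome 13, 75089420 to 75134861), PC1/3, was detected in PKCd replicate 1 alone. That library held 73 reads, or 2.63 TPM. The other 3 deep libraries had 0 reads, which allows up to 0.174 TPM in PKCd replicate 2, 0.115 TPM in SST replicate 1 and 0.141 TPM in SST replicate 2. In the 4 older libraries a count of 0 allows 0.812 to 2.24 TPM. Its inhibitor Pcsk1n was present in every library, at 4.40 to 952.8 TPM. PKCd replicate 1 also had the highest sum of 5 excitatory forebrain neuron markers, 43.11 TPM, with Slc17a6 at 0. In the other libraries that sum was 0 to 7.08 TPM. The part of excitatory neuron RNA in the Pcsk1 reads was not tested.

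The third comparison asked whether the population difference itself changed with age, a contrast that the choice of members did not name, although it is computed from the same 8 libraries. In edgeR with 4 cells of population and age, 0 of the 9 tested members passed, each with an adjusted p of 1.00, and 0 had an unadjusted p under 0.05, where all genes gave 4.14%. The difference of the log2 fold changes, older minus younger, was 1.46 ± 1.15 for Scg5 and -7.32 ± 3.99 for Pcsk2 (SE), which depends on the prior count. That test called 0.0% of all genes in either direction. DESeq2 called 0 of the 9, where it called 0.123% of all genes higher and 0.624% lower, and 0 had an unadjusted p under 0.05, where all genes gave 7.55%. limma called 0 members as well. Each cell of this comparison held 2 libraries, and a p that misses the threshold does not show that the population differences were alike at both ages.

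Other genes of the pathway and of these cells are given for context, from lists made with earlier results known. Of 34 further genes of dense-core vesicles and peptide processing, 27 could be tested and 0 passed for population in edgeR; at an unadjusted p under 0.05 there were 2, and calls by DESeq2 were 1 higher and 1 lower. Their median log2 fold change was -0.43, and 1 of the 27, Qpct, was lower in each PKCd library than in any SST library, where 3.04% of all tested genes were. Qpct, named after its values were seen, forms the pyroglutamate end of many peptides. For age, 0 of the 27 passed, 3 had an unadjusted p under 0.05, DESeq2 called 1 lower, and the median was -0.99. The 3 most abundant were Atp6ap1, an accessory subunit of the vesicular proton pump, Rab2a, a GTPase of dense-core vesicle maturation in worms, and Rab3a, a GTPase of regulated secretion. Rab2a averaged 91.2 ± 58.9 TPM in the older and 444 ± 171 TPM in the younger mice (SD, n = 4 each), without overlap. Its lowest value, 6.52 TPM in PKCd replicate 3, rested on 7 reads. Of the 27, 2 were lower in all older than in all younger mice, Rab2a and Ptprn2, where 3.52% of all tested genes were. Atp6ap1 averaged 321.8 ± 139.4 TPM over the PKCd and 324.7 ± 136.9 TPM over the SST libraries (SD, n = 4 each). Rab3a averaged 207.7 ± 164.5 TPM over the PKCd and 199.1 ± 92.4 TPM over the SST libraries.

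Of 25 neuropeptide precursors, the cargo that these enzymes cut, 8 could be tested. For population 0 passed in edgeR, 2 reached an unadjusted p under 0.05, 2 were lower by DESeq2, and the median log2 fold change was -1.38. The 8 include Sst, at -2.78, whose promoter drives Cre in the SST mice, so these values in part restate the sort. Of the 8, 1, Pdyn, was lower in each PKCd library than in any SST library, where 3.04% of all tested genes were. For age 0 passed, 1 reached an unadjusted p under 0.05, 1 was higher by DESeq2, and the median was -0.69. Penk, the enkephalin precursor, had 49.5, 1183, 136.9 and 118.4 TPM in PKCd replicates 1 to 4 and 196, 230.6, 131.6 and 304.4 TPM in SST replicates 1 to 4. Its highest library, PKCd replicate 2, was the one with the most Pcsk1n and Chgb. Nts, the neurotensin precursor, averaged 51.4 ± 63.4 TPM in PKCd and 224.7 ± 139.2 TPM in SST (n = 4 each, ± SD) and overlapped.

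16 general neuron genes had 0 called in edgeR for population, with 0 at an unadjusted p under 0.05, 0 in DESeq2 and a median log2 fold change of 0.76. For age 0 were called, 3 had an unadjusted p under 0.05, DESeq2 called 1 lower, and the median was -1.74. The most abundant were Uchl1, a neuronal deubiquitinase, at 332.9 ± 405.7 TPM in PKCd and 221.6 ± 110.6 TPM in SST libraries, and Stmn3, a microtubule regulator, at 206.1 ± 252.4 TPM in PKCd and 115.2 ± 59.7 TPM in SST (n = 4 each, ± SD). Both peaked in PKCd replicate 2. Of the 16, Stmn3 and Sncb were lower in all older than in all younger mice, where 3.52% of all tested genes were. Stmn3 had 36.9 to 71.1 TPM in the older and 122.4 to 578.4 TPM in the younger mice. Of 8 GABA neuron genes 4 could be tested and 0 were called for population or age in either tool, with 0 and 1 at an unadjusted p under 0.05 and medians of 0.54 and -1.79. Gad1, which makes GABA, had 106.6 TPM in PKCd replicate 2 and 1.71 to 24.2 TPM in the other PKCd libraries, against 4.55 to 52.2 TPM in SST libraries.

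Activity and dissociation-response genes are set beside the members because activity is known to induce Scg2 and Vgf. For age, of 11 tested, 0 passed in edgeR, 3 reached an unadjusted p under 0.05 and 2 were higher by DESeq2, with a median log2 fold change of 1.79, and 5 of them, Fos, Junb, Ier2, Btg2 and Atf3, were higher in all older than in all younger mice, where 4.14% of all tested genes were. Fos had 640 to 1543 TPM in the older and 29.1 to 506 TPM in the younger mice, and Junb 432.1 to 1950 TPM in the older and 56.1 to 352.3 TPM in the younger mice. The log2 fold change of Scg2 for age was -0.76, and 0.84 without both replicate 2 libraries. That of Vgf was -4.49, which rests on 1 read in the older libraries and depends on the prior count. The part of activity or dissociation in the Scg2 and Vgf values was not tested, and age class cannot be told apart from depth. For population, 0 of the 11 passed in edgeR, 1 reached an unadjusted p under 0.05, 1 was higher by DESeq2, and the median was 0.49.

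The gene profiles most like the mean of the 10 members were sought among 7980 other tested genes with a mean of at least 10 TPM. Likeness was the root mean square difference of log2(TPM + 1) over the 8 libraries, each gene first centred on its own mean. The 5 nearest were Tmem59l at 0.30, Nrsn1 at 0.34, Snrpn at 0.38, Clcn4 at 0.39 and Snurf at 0.40, where the median of all candidates was 1.50. Snrpn and Snurf share a transcript, which leaves their separate levels uncertain. Tmem59l had 54.4, 75.9, 38.8 and 25.5 TPM in PKCd replicates 1 to 4 and 40.2, 149.5, 46.6 and 41.7 TPM in SST replicates 1 to 4. The members themselves were farther from their own mean, at 0.63 for Vgf to 1.98 for Pcsk1n, so the mean profile described no single member closely.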

How the data were processed

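RNA of 8 libraries was analysed from the deposited transcript tables. Estimated counts and TPM values were made by the authors with kallisto 0.43.0, per the file headers and the submitters' processing notes, which also name BWA 0.7.12 and mm10; what BWA was used for is not stated in the labels or headers. The labels name polyA RNA and a SMARTer kit for small RNA. TPM in the deposited files is scaled to transcript length and to a fixed total, so abundant genes lower all others. Of 30404 targets, 29405 were named from RefSeq (GRCm38.p6), 142 from GENCODE names and 857 kept their accession, giving 21375 genes; 70 target identifiers were repeated and summed. Coordinates are 1-based.

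Estimated counts of a gene's targets were added and then rounded to whole numbers. The test was edgeR 4.0.16 (R 4.3.3), quasi-likelihood, TMM scaling, default expression filter, with terms for age class and population, and 4 cells for the interaction; p-values were adjusted by Benjamini-Hochberg over 11370 genes at 0.05, and SE came from the F statistic. Log2 fold changes are PKCd over SST or older over younger. Each library came from its own mouse, so p-values measure the spread between mice with that of sorting and amplification. The fit was tested on simulated data. Alternatives were RLE scaling, no filter, DESeq2 1.42.0, limma 3.58.1 on log2(TPM + 1) and log2(TPM + 0.1), no age or population term, a replicate block and each library left out; leaving out PKCd replicate 2 and SST replicate 2 together was chosen after the data were seen. A floor of 3 counts is 3.11 CPM in the shallowest library and 0.164 CPM in the deepest. Members and gene lists were chosen with earlier results of these data known. The rule named the 10 members, Prkcd and Sst, the 3 most abundant genes of the vesicle and peptide lists, the 2 most abundant of the other lists (1 of which is not reported here) and the 5 most alike genes; Qpct and other genes were named after their values were seen.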

Additional observations from a re-analysis of the deposited data

Results flagged for a closer look

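Within each population and each age class, the member levels were searched for a library far from the other 3. Of 38 groups of 4 libraries, 9 held such a library. Chance gives about 1 in 20 for independent groups of normally distributed values, a rate that cannot be applied here. TPM was not shown to be so distributed, and the groups share libraries. Also, 3 of the 9 cases, Pcsk1 in both groupings and Vgf, follow from 0 in the other 3 libraries. Each was the highest of its group.

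PKCd replicate 2 stood apart in PKCd libraries for Chga, at 65.4 TPM, and for Chgb, at 83.8 TPM. SST replicate 2 stood apart in SST libraries for Chga, at 142.8 TPM, for Pcsk2, at 41.4 TPM, and for Pcsk1n, at 480.2 TPM. Among mice of 18 to 20 weeks, SST replicate 3 stood apart for Chga, at 20.7 TPM, and SST replicate 4 for Vgf, at 0.266 TPM, which is 1 read. Pcsk1 stood apart in PKCd replicate 1 at 2.63 TPM, both among PKCd libraries and among mice of 8 to 9 weeks, because the other libraries were at 0.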

How the results depend on the processing

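Depth limits the low genes: a count of 0 allows over 2 TPM of Pcsk1 in the shallowest library. The count of all genes called for population, 32 in edgeR, was 271 with no filter, 457 in DESeq2, and 125 and 63 in limma on log2(TPM + 1) and log2(TPM + 0.1). It was 10 to 52 with 1 library left out, over 1.5 times away from 32 for each library but SST replicate 2. For age it was 7, against 255 with no filter, 576 in DESeq2, 36 and 21 in limma at the same pseudocounts, 0 to 1 with 1 library left out (0 for each but SST replicate 3, with 1) and 0 without PKCd replicate 2 and SST replicate 2. For the interaction it was 0, against 25 with no filter and 85 in DESeq2. Members called were 0 in each comparison, except 1 for population in DESeq2 (Pcsk2), and for age 1 in DESeq2 (Pcsk1n) and 2 with no filter (Pcsk1n and Cpe); with 1 library left out they were 0 in all 24 fits. The cause of these differences was not tested.

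Among the member log2 fold changes, those of Scg3, Scg5, Pcsk2, Pcsk1n and Cpe for population and of Chga, Chgb, Scg2, Pcsk2, Pcsk1n and Cpe for age kept their sign with each library left out. Vgf passed the filter in 4 of those 8 fits, those without an older library, and its age value kept its sign in them. For population the sign turned for Chga in limma on log2(TPM + 0.1) (0.54), with the replicate block (0.25) and without both replicate 2 libraries (0.07), for Chgb with no age term (0.12), and for Vgf in DESeq2 (0.16), limma on log2(TPM + 1) (0.15), with no age term (0.69) and with the replicate block (0.10). With 1 library left out the range was -2.08 to 0.11 for Chga, -1.76 to 0.0645 for Chgb, -1.08 to 0.0372 for Scg2 and -0.25 to 0.75 for Vgf. For age it was -3.92 to -1.94 for Chga, -2.29 to -0.45 for Chgb, -1.08 to -0.02 for Scg2, -0.17 to 0.59 for Scg3 and -0.24 to 0.40 for Scg5, and Scg5 was -0.30 with no population term. Without both replicate 2 libraries the age values of Chga, Chgb, Scg2, Scg3 and Scg5 were 0.68, 0.91, 0.84, -0.41 and -0.25.

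Replicate numbers gave no sign of pairing. The correlation of deviations from the population means was 0.072, 0.123, 0.057 and 0.163 for numbers 1 to 4. Between different numbers of the same age class it was 0.067 to 0.153. These deviations also carry age class, and with deviations taken within age class it was 0.003 for the younger and -0.006 for the older mice. With the replicate block 24 genes and 0 members were called for population.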
